A study of Mus musculus with 16 samples.

Results

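The expression of 10 proliferation genes was followed in microglia of the mouse olfactory bulb, the first relay of odour information in the brain. The genes, Mki67, Top2a, Ccnb1, Ccna2, Cdk1, Birc5, Cenpf, Mcm5, Mcm6 and Pcna, were taken by symbol from a count table of 57010 genes, as markers of S phase (3 genes) and of mitosis (7 genes). All 10 were among the 18227 genes with enough counts to be tested, a filter that asked for 5 or more counts in 50% or more of the libraries. The 16 libraries came from mice aged 2 months, with 4 libraries from WT females, 4 from WT males, 4 from APP-NL-G-F females and 4 from APP-NL-G-F males. WT mice were C57BL/6J animals, and APP-NL-G-F mice carry a humanised App knock-in with 3 disease mutations at the endogenous locus, so that no transgene promoter drives it and every cell that transcribes App carries the change. Microglia were pulled from the dissected bulbs with magnetic beads against CD11b, a surface protein that other myeloid cells also carry, and total RNA depleted of ribosomal RNA was sequenced. Nothing in the labels ties a library to a named animal, so the p-values measure the spread between these libraries.

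A cell that divides first licenses its replication origins by loading the MCM helicase, of which Mcm5 and Mcm6 are subunits. It then copies its DNA with polymerases held on the template by the sliding clamp that Pcna encodes, and Pcna also serves DNA repair outside S phase. The genes of the second group act later: cyclin A2 (Ccna2) and cyclin B1 (Ccnb1) activate the kinase Cdk1, topoisomerase II alpha (Top2a) untangles sister chromatids, Cenpf sits on kinetochores, survivin (Birc5) belongs to the chromosomal passenger complex, and Ki-67 (Mki67) coats mitotic chromosomes and is the usual stain for cycling cells. Adult microglia renew slowly, so these transcripts are scarce in a bulk sample. In such samples a smaller number of cycling cells and less RNA per cycling cell cannot be told apart.

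The upstream sequences of 5 members are printed with matches to elements known from cell cycle promoters. They are the bases before the RefSeq start of each gene that lie outside its annotated exons, read 5′ to 3′ on the coding strand, with GRCm39 positions. For Cdk1 these bases lie inside the gene as gencode annotates it (69170976 to 69236595), which begins further upstream than the RefSeq start. Capitals mark matches, on either strand, to the cell cycle genes homology region (CHR; TTTGAA or TTCGAA), the CCAAT box (CCAAT), the E2F site (TTTCGCGC, TTTGGCGC, TTTCCCGC or TTTGCCGC), the cyclic AMP response element (CRE; TGACGTCA) and the GC box (GGGCGG).
Pcna (chr2:132095235-132095350, minus strand): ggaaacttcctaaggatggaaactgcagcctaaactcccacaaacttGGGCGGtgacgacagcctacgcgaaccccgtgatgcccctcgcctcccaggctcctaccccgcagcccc
Mcm5 (chr8:75835887-75836136, plus strand): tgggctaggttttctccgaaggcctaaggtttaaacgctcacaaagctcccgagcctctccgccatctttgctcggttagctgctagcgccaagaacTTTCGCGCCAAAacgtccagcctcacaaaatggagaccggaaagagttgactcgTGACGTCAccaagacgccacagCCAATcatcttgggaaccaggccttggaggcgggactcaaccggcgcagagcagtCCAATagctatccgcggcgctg
Mcm6 (chr1:128287517-128287692, minus strand): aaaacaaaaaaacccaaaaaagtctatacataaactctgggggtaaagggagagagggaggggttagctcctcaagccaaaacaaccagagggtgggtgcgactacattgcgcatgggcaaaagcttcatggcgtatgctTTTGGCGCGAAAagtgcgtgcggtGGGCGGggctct
Top2a (chr11:98915063-98915265, minus strand): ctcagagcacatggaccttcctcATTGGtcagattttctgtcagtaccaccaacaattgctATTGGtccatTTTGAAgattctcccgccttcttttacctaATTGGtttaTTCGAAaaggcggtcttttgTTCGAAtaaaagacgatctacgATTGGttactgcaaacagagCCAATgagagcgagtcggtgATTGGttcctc
Cdk1 (chr10:69188773-69188992, minus strand): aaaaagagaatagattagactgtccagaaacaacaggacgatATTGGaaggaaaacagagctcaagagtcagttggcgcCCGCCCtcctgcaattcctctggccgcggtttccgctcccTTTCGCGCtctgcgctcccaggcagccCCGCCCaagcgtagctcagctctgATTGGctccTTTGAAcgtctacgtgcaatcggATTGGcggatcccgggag
Pcna is shown as the member that differed between the genotypes, Mcm5 and Mcm6 as the other S phase genes, and Top2a and Cdk1 as mitotic genes that hold a CHR match. RefSeq sequences (GRCm38.p6 table, each found once in GRCm39) were matched for 9 of the 10 members, all but Ccna2. In the whole 250 bases before the start, an E2F match was present in 3 of these 9 (Mcm5, Mcm6 and Cdk1), against 1.9% of 32851 promoters of the same length. The neighbouring E2F matches of Mcm5 overlap each other, as do those at the distal site of Mcm6. A CHR match was present in 3 of 9 (Mki67, Top2a and Cdk1), against 17.1% of promoters, and in none of the mitotic genes Ccnb1, Birc5 and Cenpf. Top2a held 4 of them. A CCAAT box was present in 8 of 9, all but Birc5, against 33.8%, and a GC box in 8 of 9, all but Mcm5, against 32.7%. Mcm5 alone held a CRE, found in 1.5% of promoters. The Pcna window held 2 GC boxes and 1 CCAAT box, of which 1 GC box lies in the 116 bases shown, and no E2F or CHR match. Such matches describe letters, and their absence says nothing about the factor.

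Between 9052932 and 18117286 counts were assigned per library, and no library pair held identical counts. Levels are given as CPM, the count scaled to the library's total after TMM normalization. A gene was called when its Benjamini-Hochberg FDR in edgeR's quasi-likelihood test was under 0.1 and its log2 fold change was larger than 0.5 in size. Microglial markers were abundant in every library, at a sum of 21700 to 25800 CPM for 13 genes. The summed level of 12 neuroblast markers, cells that migrate into the bulb and some of which divide, was 196 to 226 CPM in the WT libraries against 232 to 259 CPM in APP-NL-G-F. The groups do not overlap in this sum, which was higher in APP-NL-G-F. Over both sexes 3 of the 12 genes were called, all higher (Dcx, Dlx6 and Igfbpl1). Of all 18227 tested genes, 790 were called higher in this comparison, and 1.29% had genotypes that did not overlap. Neural stem and progenitor markers (7 genes, 6 tested) spanned 76.9 to 110 CPM in WT females and 63.5 to 77.9 CPM in APP-NL-G-F females. In males they spanned 54.8 to 64.3 CPM in WT and 65.0 to 82.3 CPM in APP-NL-G-F. Of the 6 genes, 5 were negative within females, with Vim called lower, and 1 was negative within males. Over both sexes 0 were called. Neuron markers spanned 410 to 569 CPM in WT, with 508 to 749 CPM in APP-NL-G-F. No marker list had a gene at 0 in all libraries. The part of these cells in the levels below was not tested.

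Per length, the order of the levels in WT libraries was set by Pcna, at 31.9 ± 5.45 CPM per kb of exon (SD, n = 8). The next was Mcm6, with 3.82 ± 0.46 CPM per kb, and its lowest WT value of 2.96 lies far below the lowest of Pcna, 25.6. Mki67 followed at 3.49 ± 2.18 CPM per kb and Top2a at 2.96 ± 1.55, and neither differs from Mcm6 beyond the spread of its libraries. Mcm5 stood at 1.87 ± 0.36 CPM per kb. The mitotic genes Ccna2 (1.14 ± 0.719), Cenpf (1.14 ± 0.417) and Cdk1 (0.858 ± 0.281) overlapped each other, and Birc5 (0.507 ± 0.33) and Ccnb1 (0.374 ± 0.243 CPM per kb) were lowest. Ccnb1 rested on 7 to 45 counts per library, Birc5 on 9 to 60, and Pcna on 415 to 1551. Per kb of exon, the lowest Pcna value of any library was 14.7, in APP-NL-G-F. It lay above the highest value of any other member, 7.56 for Mki67 in WT. In CPM, without division by length, this did not hold. In APP-NL-G-F female replicate 2, Mki67 stood at 49.3 CPM and Pcna at 48.8 CPM.

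Pcna was the member that fell in APP-NL-G-F microglia. Its gene lies on chromosome 2 from 132091082 to 132095234 on the minus strand (GRCm39). In WT females it stood at 96.9, 92.7, 81.9 and 78.4 CPM, and in APP-NL-G-F females at 45.9, 48.8, 40.2 and 50.7 CPM. In WT males the values were 68.1, 68.1, 61.5 and 65.5 CPM, and in APP-NL-G-F males 35.3, 39.7, 57.2 and 56.5 CPM. All 8 APP-NL-G-F libraries lay below all 8 WT libraries, the closest being APP-NL-G-F male replicates 3 and 4. The WT mean was 76.7 ± 13.1 CPM and the APP-NL-G-F mean 46.8 ± 8.0 CPM (SD, n = 8). With sex as a term, the log2 fold change was -0.70 (SE 0.101, edgeR FDR 0.000517), a level 38.4% lower. Pcna ranked 56 of 18227 genes by p in this comparison. Of all tested genes 8.64% were called in either direction and 4.30% were called lower. Exchanging the genotypes inside each sex in all 4900 ways (exact permutation test) gave a two-sided p of 0.000408, the smallest these splits can give. Genotypes did not overlap for 1.29% of all tested genes, and 1.15% of genes lay lower in this way.

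**Figure D1:**
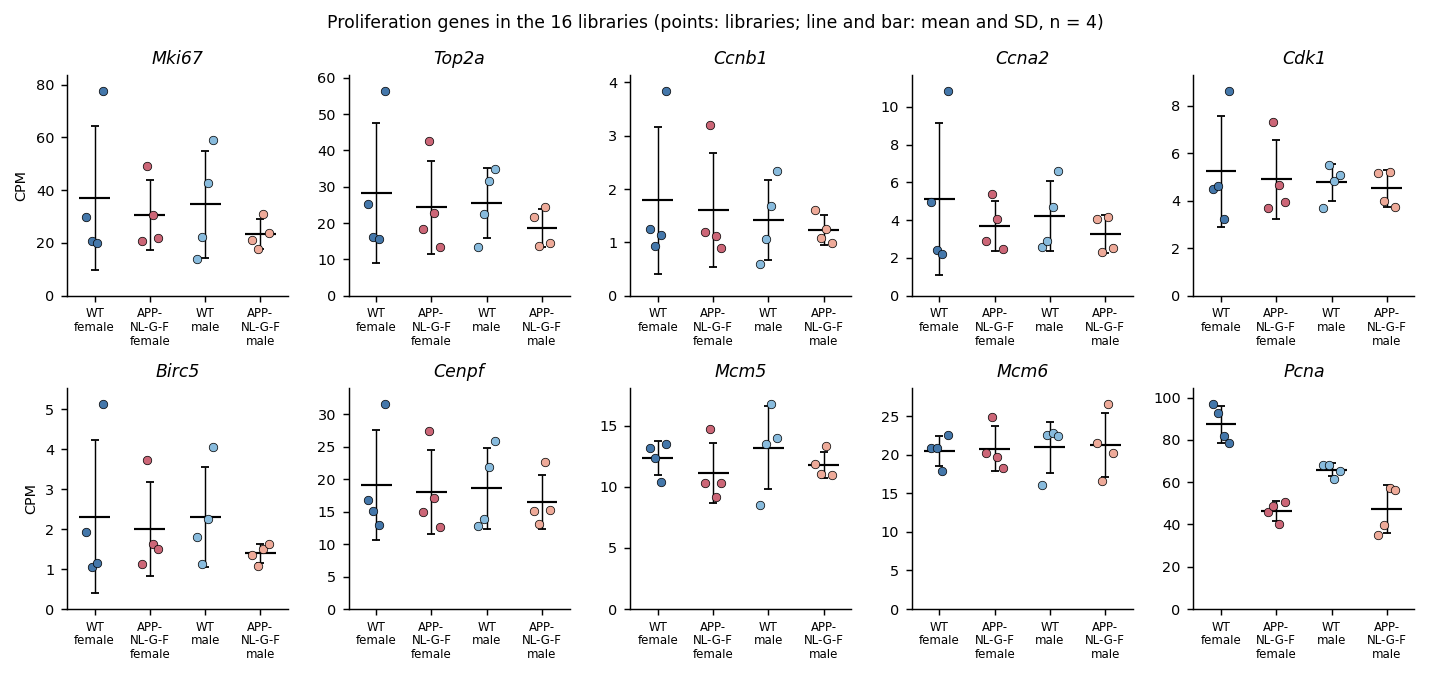
Levels of the 10 members in CPM (y axis from 0) in each library (points) of the 4 groups on the x axis, with the mean (line) and SD (bar, n = 4). Pcna lies lower in all APP-NL-G-F libraries than in all WT libraries, while for the mitotic genes WT female replicate 4, at 77.7 CPM of Mki67, stands above every other library.

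Within females the log2 fold change of Pcna was -0.91 (SE 0.126, edgeR FDR 0.00072), where 7.15% of all genes were called and 4.33% were called lower. Within males it was -0.48 (SE 0.127, unadjusted p = 0.00142 in edgeR), which passed neither the FDR (0.142) nor the fold threshold; 0.252% of all genes were called there. Without APP-NL-G-F male replicate 3 or replicate 4, Pcna was called in males as well. The difference between the sexes was -0.43 (SE 0.179, unadjusted p = 0.0263 in edgeR, FDR 0.745), and thus not called in a test that called 0.0274% of genes. The WT means of Pcna were 87.5 ± 8.74 CPM in females and 65.8 ± 3.09 CPM in males (SD, n = 4). The APP-NL-G-F means of the sexes were 46.4 ± 4.56 and 47.2 ± 11.3 CPM (SD, n = 4). Between the sexes, with genotype as a term, Pcna was not called (0.20, SE 0.101, edgeR FDR 0.769).

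Library numbers in the labels run from 1 to 16, with replicates 1 and 2 of each group numbered 1 to 8 and replicates 3 and 4 numbered 9 to 16. In numbers 1 to 8 alone the log2 fold change of Pcna was -0.94 (edgeR FDR 5.4e-06), and in numbers 9 to 16 alone it was -0.48 (edgeR FDR 0.186), short of the threshold. The direction was the same in both sets, and the difference between them was not tested. With each library left out in turn the additive value lay between -0.76 and -0.65 and was called in all 16 fits.

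Other transcripts at the Pcna locus bear on how its reads were counted. AV099323, a long noncoding RNA on the opposite strand that overlaps Pcna and was singled out after its values were seen, held 13 to 42 counts per library. It was also called lower, with a log2 fold change of -0.53 (SE 0.184, edgeR FDR 0.0795), from 2.20 ± 0.60 CPM in WT to 1.52 ± 0.326 CPM in APP-NL-G-F (SD, n = 8). The paper names a stranded library kit, but the strand setting of the counting is not stated in the sources used here. How reads in the overlap of Pcna (415 to 1551 counts) with its antisense partner were assigned is therefore not known. The part of such reads in either difference was not tested. The pseudogene Pcna-ps2 had 0 to 12 counts and Pcna-ps1 had none.

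The MCM helicase genes did not pass the test. Mcm5 (chromosome 8, 75836140 to 75856231, plus strand) ran from 8.55 through a median of 13.3 to 16.8 CPM in WT, and from 9.20 through 11.04 to 14.8 CPM in APP-NL-G-F. Mcm6 (chromosome 1, 128259311 to 128287516, minus strand) ran from 16.1 through 21.7 to 22.8 CPM in WT, and from 16.6 through 20.3 to 26.6 CPM in APP-NL-G-F. The genotypes overlapped for both. Their log2 fold changes were -0.15 (SE 0.12, edgeR FDR 0.493) for Mcm5 and 0.02 (SE 0.0967, edgeR FDR 0.941) for Mcm6. For Mcm6 the sign turned under 5 of 33 alternatives, within -0.03 to 0.08. The standard error of Mcm6 was below that of Pcna, so the precision of these S phase genes was alike.

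None of the 7 mitotic genes was called. Mki67 (chromosome 7, 135291513 to 135318299, minus strand) stood at 29.99, 20.9, 20.0 and 77.7 CPM in WT females and at 20.8, 49.3, 30.6 and 21.8 CPM in APP-NL-G-F females. In males it stood at 14.1, 22.4, 42.9 and 59.1 CPM in WT and at 21.2, 17.7, 30.9 and 23.8 CPM in APP-NL-G-F. WT libraries held both the lowest and the highest value, and the genotypes overlapped broadly. The means were 35.9 ± 22.4 and 27.0 ± 10.1 CPM (SD, n = 8), a log2 fold change of -0.41 (SE 0.304, edgeR FDR 0.453). The highest WT library was 5.5-fold over the lowest, and the same ratio was 2.79 in APP-NL-G-F. These distances exceed counting error: the 95% Poisson interval was 72.7 to 82.9 CPM in WT female replicate 4 and 12 to 16.4 CPM in WT male replicate 1.

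Top2a (chromosome 11, 98883769 to 98915062, minus strand) ran from 13.5 through a median of 23.9 to 56.4 CPM in WT and from 13.5 through 20.0 to 42.6 CPM in APP-NL-G-F, with a log2 fold change of -0.34 (SE 0.279). Cenpf (chromosome 1, 189372752 to 189420315, minus strand) ran from 12.8 through 15.97 to 31.6 CPM in WT and from 12.7 through 15.2 to 27.4 CPM in APP-NL-G-F, with a log2 fold change of -0.12 (SE 0.202). The genotypes overlapped for each of these structural genes, and WT female replicate 4 held the top value.

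The cyclins and their kinase showed the same picture at lower levels. Ccna2 (chromosome 3, 36619014 to 36626299, minus strand) ran from 2.21 through a median of 3.81 to 10.8 CPM in WT and from 2.31 through 3.46 to 5.37 CPM in APP-NL-G-F, with a log2 fold change of -0.41 (SE 0.302). Ccnb1 (chromosome 13, 100915153 to 100923116, minus strand) ran from 0.599 through 1.195 to 3.84 CPM in WT and from 0.897 through 1.16 to 3.21 CPM in APP-NL-G-F, with a log2 fold change of -0.16 (SE 0.342). Cdk1 (chromosome 10, 69170976 to 69236595, minus strand) ran from 3.21 through 4.72 to 8.62 CPM in WT and from 3.68 through 4.303 to 7.30 CPM in APP-NL-G-F, with a log2 fold change of -0.09 (SE 0.188). Ccnb1 is the thinnest of these, and the 95% Poisson interval of its lowest library ran from 0.241 to 1.23 CPM. Ccna2 overlaps Exosc9 (239 to 538 counts) and Cdk1 overlaps Ank3 (984 to 3202 counts), both on the opposite strand. Reads in these overlaps may be miscounted if the counting ignored strand, so the values of Ccna2 and Cdk1 are less certain.

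Birc5 (chromosome 11, 117740040 to 117746581, plus strand) ran from 1.04 through a median of 1.87 to 5.12 CPM in WT and from 1.07 through 1.502 to 3.73 CPM in APP-NL-G-F. Its log2 fold change of -0.43 was the most negative of the 7, with an SE of 0.346. Across the 9 members other than Pcna the edgeR FDR lay between 0.453 and 0.941. The fitted value was negative for 9 of the 10 members with Pcna included, and for 50.4% of all tested genes. The median over the members was -0.25 against -0.001 over all genes, and since the members move together in single libraries these 9 signs are not 9 separate observations. The median SE of the mitotic genes was 0.302, against 0.123 over all tested genes, and 12.6% of tested genes had a larger SE than Mki67.

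**Figure D2:**
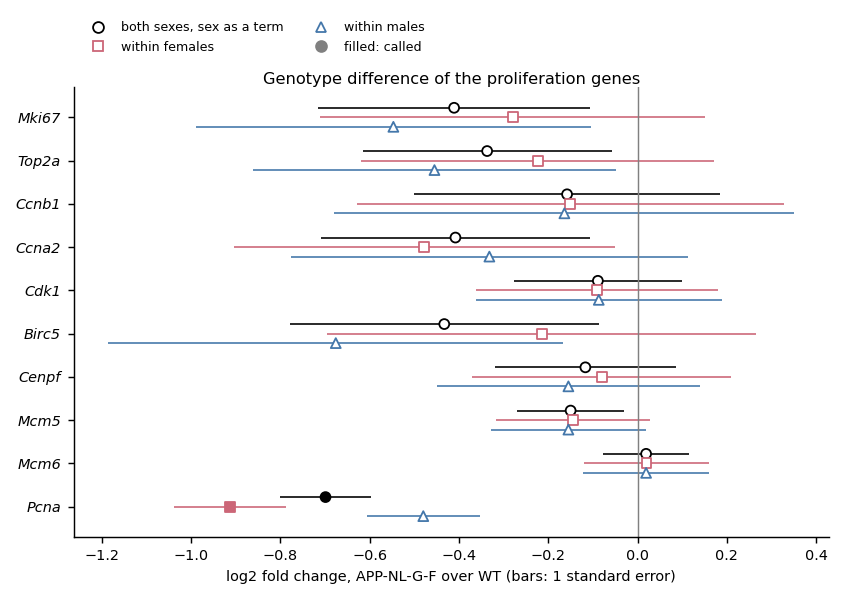
Log2 fold change of APP-NL-G-F over WT (x axis) for the 10 members (y axis), with bars of 1 standard error, over both sexes with sex as a term (circles), within females (squares) and within males (triangles). Filled symbols were called: Pcna at -0.70 over both sexes and at -0.91 within females, and no other member.

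The sign of the mitotic genes depended on which libraries entered. In library numbers 1 to 8 alone all 7 were higher in APP-NL-G-F, with log2 fold changes from 0.11 (Cdk1) to 0.80 (Ccnb1) and edgeR FDRs of 0.183 or more. In numbers 9 to 16 alone all 7 were lower, from -0.30 (Cdk1) to -1.06 (Ccnb1), with edgeR FDRs of 0.436 or more. Mki67 went from 0.25 in the first set to -0.89 in the second. Without WT female replicate 4, Ccnb1 (0.17), Cdk1 (0.08) and Cenpf (0.05) turned positive and Mki67 moved to -0.12. Without both WT female replicate 4 and APP-NL-G-F female replicate 2, a choice made after their values were seen, Mki67 stood at -0.29 and Pcna stayed called at -0.69 (edgeR FDR 0.00278). The mitotic genes thus gave no direction that held over the sets of libraries, whereas Pcna was lower in each.

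What the mitotic genes shared was their rise and fall across libraries. WT female replicate 4 held the highest value of all 16 libraries for 7 of 7 mitotic genes, against 4.67% of all tested genes. APP-NL-G-F female replicate 2 had a median rank of 2 over the 10 members, WT male replicate 4 a median rank of 3, and WT male replicate 1 the lowest value for 5 members. Group means were removed from the log2 CPM values, and each member was set against Mki67 over the 16 libraries. Pearson's r was 0.957 for Cenpf, 0.931 for Top2a and 0.919 for Ccna2 (permutation within groups, 100000 draws, two-sided p adjusted over 9 relations = 0.00042 for each). It was 0.908 for Ccnb1 and 0.885 for Birc5 (permutation p adjusted = 0.0013 for both), and 0.78 for Cdk1 (permutation p adjusted = 0.004). Spearman's rho was 0.944 for Cenpf, 0.891 for Top2a, 0.903 for Ccna2, 0.791 for Ccnb1, 0.876 for Birc5 and 0.70 for Cdk1 (permutation p adjusted between 0.00072 and 0.0089).

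The helicase subunits varied with Mki67 as well, at r = 0.717 for Mcm5 and 0.712 for Mcm6 (permutation p adjusted = 0.0076 and 0.0012), with a Spearman's rho of 0.682 and 0.679 (permutation p adjusted = 0.0089 and 0.0059). Pcna did not: r was -0.04 (permutation p = 0.86) and rho was -0.06 (permutation p = 0.8). Without WT female replicate 4 and WT male replicate 4, the libraries farthest from the Mki67 median, r lay between 0.716 and 0.929 for the 8 other members and was 0.129 for Pcna. The relation of the 8 therefore did not rest on those libraries. Over all pairs of the 7 mitotic genes the median r was 0.89 (0.71 to 0.96), Mcm5 and Mcm6 had r = 0.83, and Pcna with the 9 others had a median r of -0.04 (-0.26 to 0.25). Of all other tested genes, 174 (0.955%) reached r of at least 0.7 with Mki67, and the median was 0.01. These r values are across libraries that also share their depth and their mixture of cells.

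**Figure D3:**
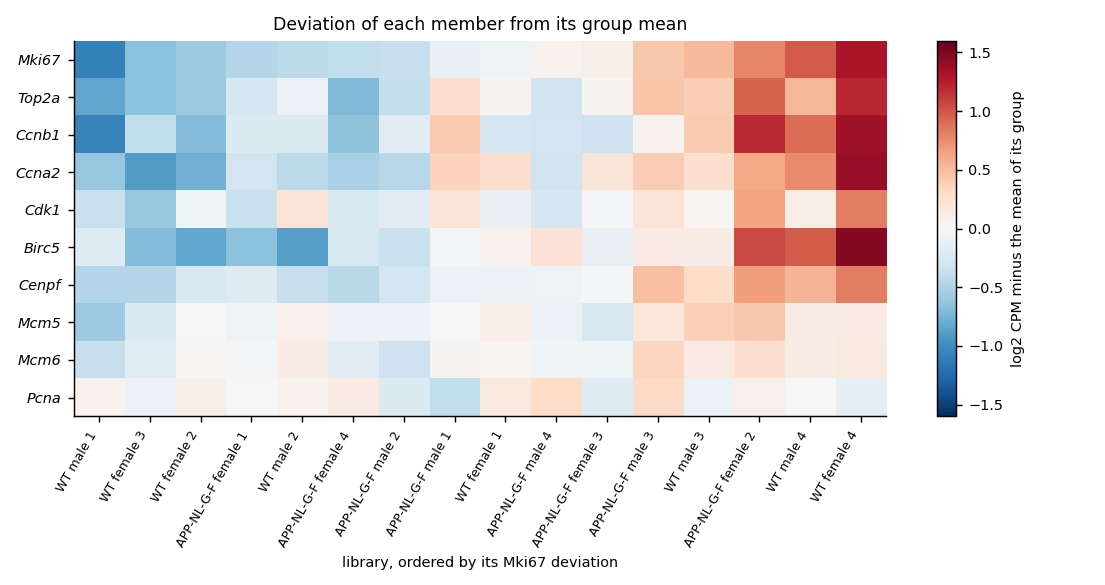
Log2 CPM of each member (rows) minus the mean of its group, in the 16 libraries (columns) ordered by the Mki67 deviation; red is above and blue below the group mean. The 7 mitotic rows shade together from WT male replicate 1 to WT female replicate 4, Mcm5 and Mcm6 do so more faintly, and the Pcna row shows no such order.

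**Figure D4:**
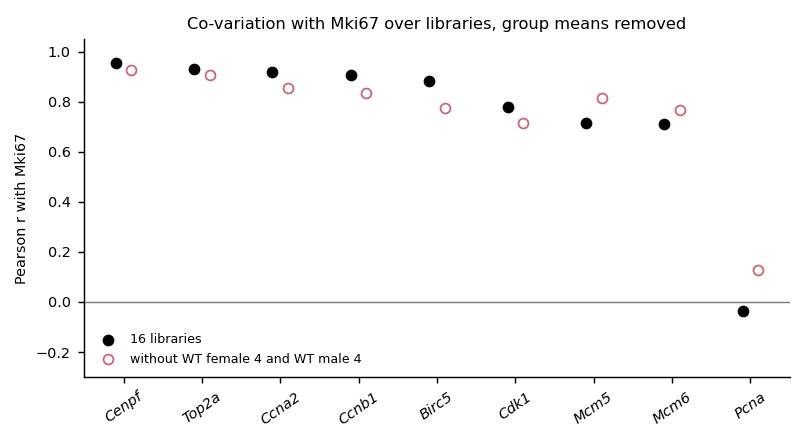
Pearson r of each other member with Mki67 over 16 libraries after removal of group means (filled), and without WT female replicate 4 and WT male replicate 4 (open). Apart from Pcna, the members lie between 0.71 and 0.96, and Pcna lies at -0.04.

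The 10 genes whose pattern was most like the mean of the members, over the 16 libraries and with group means removed, were H2bc15 (r = 0.962), Foxm1 (0.96), Kif4 (0.954), E2f8 (0.95), Kif22 (0.946), Knl1 (0.946), Prc1 (0.945), Hmmr (0.945), Bub1 (0.94) and Cenpe (0.94). Foxm1 encodes a transcription factor of the mitotic genes, E2f8 a repressor of the E2F family, Kif4, Kif22 and Cenpe chromosome-moving motor proteins, Prc1 a bundler of spindle microtubules, Hmmr a spindle protein, H2bc15 a histone H2B, and Knl1 and Bub1 kinetochore proteins of the spindle checkpoint. None of the 10 was called between the genotypes. Foxm1 was nearest, with a log2 fold change of -0.47 (SE 0.218, edgeR FDR 0.199).

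The members were then set beside 6 lists of other cell cycle genes. At most 1 gene of a list was called lower over both sexes, where 4.30% of all tested genes were, so these counts are no result about the lists. Of 48 tested kinetochore, spindle and chromosome genes none was called over both sexes, 46 had a negative log2 fold change and the median was -0.33, against a median of 0 over all tested genes. WT female replicate 4 held the highest value for 36 of the 48. Hmgb2, a chromatin protein abundant in cycling cells, had the smallest p of this list and fell short of the fold threshold at -0.49 (SE 0.0964, edgeR FDR 0.00347), from 50.5 ± 7.99 CPM in WT to 35.7 ± 5.30 CPM in APP-NL-G-F (SD, n = 8). It was called in females at -0.68 (edgeR FDR 0.0034). The second of the list, the kinesin Kif20b, was not called at -0.38 (edgeR FDR 0.113).

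Of 25 tested mitotic cyclins, kinases and regulators, 1 was called lower and none higher over both sexes, 21 were negative and the median was -0.26. WT female replicate 4 was the highest library for 16 of them. The called gene was Cks2, a small subunit that binds Cdk1, with 3.25 to 6.74 CPM in WT (median 5.76) and 1.95 to 3.999 CPM in APP-NL-G-F (median 3.35). Its log2 fold change was -0.70 (SE 0.153, edgeR FDR 0.00754), the same size as that of Pcna, and its genotypes overlapped. Wee1, the kinase that holds Cdk1 inactive, went the other way at 0.49 (SE 0.14, edgeR FDR 0.0323), just under the fold threshold over both sexes, and was called higher in females at 0.60 (edgeR FDR 0.0891). Plk1 (-0.54), Aurkb (-0.43), Ccnb2 (-0.20), Foxm1 and the transcription factor Mybl2 (-0.36) were not called, with edgeR FDRs from 0.199 to 0.754.

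Of 22 tested origin licensing and helicase genes, 1 was called lower and none higher, 17 were negative and the median was -0.07. The called gene was Cdc45, which joins the MCM ring to form the active helicase. It rested on 12 to 38 counts per library and ranged from 1.37 through a median of 2.08 to 2.46 CPM in WT and from 1.02 through 1.21 to 1.76 CPM in APP-NL-G-F. Its log2 fold change was -0.64 (SE 0.171, edgeR FDR 0.0241), and 6 of the 8 APP-NL-G-F libraries lay below every WT library. The remaining ring subunits were not called, at -0.05 for Mcm2, -0.09 for Mcm3, -0.08 for Mcm4 and 0.01 for Mcm7, and Mcm10 was at -0.40 (edgeR FDR 0.327). Of 33 DNA synthesis and nucleotide supply genes, none was called, 28 were negative and the median was -0.15. Its genes of smallest p were Slbp, the histone mRNA binding protein, at -0.15 (edgeR FDR 0.102) and Chaf1b, a chromatin assembly subunit that works with Pcna, at -0.67 (edgeR FDR 0.139).

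Among the genes that govern entry into the cycle, of 15 tested G1 cyclins, kinases and E2F activators none was called, 4 had an unadjusted p under 0.05 in edgeR, 9 were negative and the median was -0.10. Ccnd1, the D-type cyclin of highest level, stood at 146 ± 9.64 CPM in WT, against 159 ± 14.3 CPM in APP-NL-G-F (SD, n = 8), with a log2 fold change of 0.13 (edgeR FDR 0.165). Cdk2 (-0.27, edgeR FDR 0.0514) and Cdk6 (-0.19, edgeR FDR 0.0654) passed the FDR but not the fold threshold. Ccnd2 (0.03), Ccnd3 (-0.12), Cdk4 (-0.03), E2f1 (-0.10) and the pocket protein gene Rb1 (-0.01) passed neither. Of 19 tested inhibitors and quiescence genes, 1 was called lower and none higher, 17 were negative and the median was -0.04.

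The called inhibitor was Cdkn1a, which encodes p21, a protein that binds both cyclin-dependent kinases and the Pcna clamp and is induced by p53. It ran from 15.3 through a median of 18.8 to 24.7 CPM in WT and from 8.84 through 13.5 to 18.8 CPM in APP-NL-G-F. The genotypes overlapped, and all 8 APP-NL-G-F libraries lay below the WT median. Its log2 fold change was -0.51 (SE 0.14, edgeR FDR 0.0267), and within females it was -0.68 (edgeR FDR 0.0463). Cdkn1b, the p27 inhibitor, passed the FDR alone at -0.15 (edgeR FDR 0.0983), as did Lin9, a subunit of the complex that binds CHR elements, at -0.24 (edgeR FDR 0.0806).

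**Figure D5:**
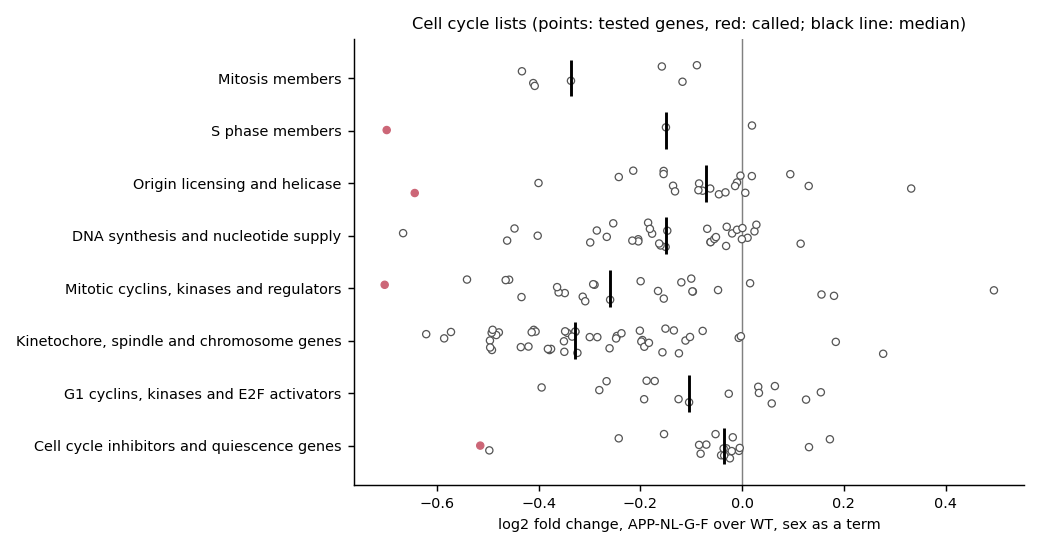
Log2 fold change of APP-NL-G-F over WT with sex as a term (x axis) for every tested gene of the members and of 6 cell cycle lists (y axis); red points were called and the black line is the list's median. The red points are Pcna, Cdc45, Cks2 and Cdkn1a, all lower, and the kinetochore list has its median at -0.33 with no called gene.

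Between the sexes, with genotype as a term, no member was called by edgeR, in a comparison that called 0.0604% of all genes, and 0 of 10 had an unadjusted p under 0.05. DESeq2 and limma voom also called 0 members. The fitted value was higher in females for 8 of 10 members, with the largest for Ccnb1 at 0.38 (SE 0.342). Birc5 (0.27, SE 0.346), Top2a (0.27, SE 0.279) and Mki67 (0.25, SE 0.304) followed. WT female replicate 4 lies among these females. The median of the 7 mitotic genes was 0.25, against 0 over all tested genes. Since the members move together in single libraries, these signs are not separate observations. No member other than Pcna had an unadjusted p under 0.05 in the genotype comparison within females or within males, or in the interaction. In females 1 of 10 members was called and in males none. The interaction values of the 9 others lay near 0 against their errors, for example 0.27 (SE 0.617) for Mki67 and 0.00 (SE 0.198) for Mcm6.

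Other cell types in the libraries were read beside the pattern of the mitotic genes. The sum of 8 monocyte markers was highest in WT female replicate 4 (38.9 CPM) and next in APP-NL-G-F female replicate 2 (35.6 CPM). These are the female libraries with the most Mki67. In WT male replicate 4, which had the second highest Mki67, the monocyte sum was lowest of all (23.8 CPM). The neutrophil sum (8 genes, 4 tested) ranked 1 of 16 in WT male replicate 4 (295 CPM). It ranked 7 in WT female replicate 4 and 13 in APP-NL-G-F female replicate 2. The lymphocyte sum (12 genes, 2 tested) ranked 1 in APP-NL-G-F female replicate 2 (17.7 CPM). It ranked 7 in WT female replicate 4 and 14 in WT male replicate 4. The neuroblast sum of WT female replicate 4 was 221 CPM, rank 12 of 16. Its neural stem and progenitor sum was 83.9 CPM, rank 3 of 16, and that of WT male replicate 4 was 54.8 CPM, rank 16. Other marker lists are given within each sex. Endothelial markers stood at 106 to 243 CPM in WT females and 95.2 to 116 CPM in APP-NL-G-F females. Within females 7 of 10 were called lower, where 4.33% of all tested genes were. In males they ran the other way, from 71.5 to 84.8 CPM in WT and from 92.4 to 130 CPM in APP-NL-G-F. There 0 of 10 were negative, 8 had an unadjusted p under 0.05 in edgeR and 1 was called higher (Abcb1a). Of all tested genes 0.252% were called within males. Abcb1a was also called in the interaction, which called 0.0274% of all tested genes. Pericyte and fibroblast markers spanned 67.3 to 126 CPM in WT females and 51.2 to 65.8 CPM in APP-NL-G-F females, with 8 of 8 tested genes negative and 2 called lower (Rgs5 and Vtn). In males these markers spanned 34.0 to 54.1 CPM in WT and 45.4 to 66.0 CPM in APP-NL-G-F, with 0 of 8 negative and 0 called. Astrocyte markers spanned 690 to 1270 CPM in WT females and 563 to 854 CPM in APP-NL-G-F females, with 8 of 8 negative and 3 called lower (Aqp4, Gfap and Aldoc). In males the astrocyte sum spanned 624 to 737 CPM in WT and 568 to 888 CPM in APP-NL-G-F, with 2 of 8 negative and 0 called. Oligodendrocyte markers were at 232 to 273 CPM in WT males and at 311 to 412 CPM in APP-NL-G-F males, with 7 of 7 positive and 0 called by edgeR (7 at an unadjusted p under 0.05). In females they were at 233 to 431 CPM in WT and at 284 to 418 CPM in APP-NL-G-F, with 0 of 7 negative and 0 called. Over both sexes 1 of these 7 oligodendrocyte markers was called, higher (Mog), and 6 had an unadjusted p under 0.05 in edgeR. Of all tested genes 8.64% were called in either direction there. Pcna was called lower in females, and in males its log2 fold change of -0.48 was not called. The part of these cells in the mitotic pattern and in the Pcna difference was not tested further.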

How the data were processed

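RNA of olfactory bulb microglia made up 16 libraries, 4 for every combination of sex and genotype. For alignment the authors used STAR on paired-end reads, with GRCm39, gencode vM32 and an extra human App sequence as reference, and raw counts per gene were deposited; the strand column of the counts is not stated in the sources used here. No value column was left out. Analyses used R 4.3.3 and edgeR 4.0.16. Genes reaching 5 counts in 50% or more of the libraries were kept (18227, holding 99.86% of the counts), and TMM factors and the quasi-likelihood test were applied with genotype and sex as additive terms. The 4-group fit gave the contrasts within each sex and their interaction. A call needed an FDR under 0.1 and a log2 fold change larger than 0.5 in size, taken over all tested genes. A standard error is the absolute log2 fold change over the square root of F. Correlations used log2 CPM with a prior count of 2.

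The members, the lists and the tests were chosen with earlier results of these data known. Named genes are the members, each list's called genes with the 2 of smallest p, a set of core cell cycle genes, and the 10 genes most like the mean of the members. The procedure was tested on simulated data. Alternatives were other normalizations, DESeq2 1.42.0, limma 3.58.1 (voom), other filters and thresholds, a robust dispersion, a replicate block, library number as a term and each library left out. Intervals are exact 95% Poisson intervals and cover counting error only. With 9052932 to 18117286 counts per library, 3 counts, the limit that a count of 0 allows, are 0.166 to 0.331 CPM. Positions came from gencode vM39 on GRCm39, and exonic lengths are the union of its exons.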

Additional observations from a re-analysis of the deposited data

Results flagged for a closer look

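Within groups of 4 libraries, 6 of 104 groups of values had a library whose gap to its nearest neighbour took a larger part of the group's range than Dixon's 95% limit allows, and chance gives about 5.2. For Ccnb1, WT female replicate 4 stood at 3.84 CPM against 0.924 to 1.25 CPM in the other WT females, a share of 0.888. APP-NL-G-F female replicate 2 stood at 3.21 CPM of Ccnb1 against 0.897 to 1.203 CPM, a share of 0.867. For Mcm6, WT male replicate 1 stood at 16.1 CPM against 22.5 to 22.8 CPM, a share of 0.954. WT female replicate 4 was also the highest of all 16 libraries for 7 of 7 mitotic genes.

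Among the marker sums, the neuroblast markers of APP-NL-G-F female replicate 2 stood at 232 CPM against 255 to 259 CPM (0.852). The neuron markers of APP-NL-G-F female replicate 3 stood at 706 CPM against 597 to 604 CPM (0.938). The red blood cell markers of WT male replicate 1 stood at 3.51 CPM against 0.101 to 0.671 CPM (0.833).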

How the results depend on the processing

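Pcna kept its direction in all 33 alternatives run on the additive comparison and its call in all but 1 of them: in library numbers 9 to 16 alone, with 8 of the 16 libraries, 0 members were called and Pcna stood at -0.48 (FDR 0.186). In library numbers 1 to 8 alone the sign reversed for Mki67 (0.25), Top2a (0.24), Ccnb1 (0.80), Ccna2 (0.14), Cdk1 (0.11), Birc5 (0.23) and Cenpf (0.23), and in numbers 9 to 16 alone for Mcm6 (-0.015); the cause was not tested. Leaving out each library in turn moved Mcm6 from -0.027 to 0.075, Ccnb1 from -0.428 to 0.165, Cdk1 from -0.204 to 0.081 and Cenpf from -0.244 to 0.049, and gave 0 to 1 called members in males. Without a filter on low counts, 1 member was called in males, and it was Mki67, not Pcna. The correlation of Pcna with Mki67 was 0.129 without the 2 farthest libraries. With a replicate block 1 member was called over both sexes and Pcna stood at -0.70. The block changed the call of no member in any comparison. Calls over all genes went from 1574 to 1562 over both sexes and from 1304 to 1210 within females. The numbers were not taken to pair the libraries, since the mean r was 0.013 over 24 same-numbered pairs and -0.005 over 72 other pairs. Of the same-numbered pairs, 8 had r over 0.1 (range -0.33 to 0.292). Still, 8 of 16 libraries correlated best with a library of their own number. No chance level was computed for this count, and what the numbers share was not tested. Counts over all genes moved more. Within males 46 genes were called, against 276 by DESeq2, 84 by limma voom and 880 without a filter. Within males 141 were called with the set of library numbers (1 to 8 or 9 to 16) as a term, and 8 at an FDR of 0.05. The interaction called 5 genes, against 81 by DESeq2, 470 without a filter, 1 by limma voom, 3 with a replicate block, upper quartile factors, library totals alone or filterByExpr, and 2 at an FDR of 0.05. The sex comparison called 11, against 57 without a filter. Within females 1304 were called, against 2136 without a filter and 833 at an FDR of 0.05. Over both sexes the 1574 calls became 2692 at the FDR alone, 2503 in numbers 1 to 8 alone and 80 in numbers 9 to 16 alone. With each library left out in turn these counts ran from 5 to 603 in males, from 1 to 43 in the interaction, from 5 to 9 between the sexes, from 594 to 2110 in females and from 1101 to 2187 over both sexes. Depth limits Ccnb1 and Birc5, with as few as 7 and 9 counts in a library.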
